A study of Mus musculus with 8 samples.

Results

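This account describes 271 DC-SCRIPT peaks that were called in both subsets of conventional dendritic cells of the mouse spleen and that lie at the ends of genes. The members were chosen by position and overlap: each is a peak of the cDC2 list that overlaps a cDC1 peak by at least 1 bp and whose centre lies within 1 kb of either end of a protein-coding gene in the RefSeq annotation of GRCm38. They make up 271 of 1767 peaks shared by the lists (15.3%, exact 95% interval 13.7 to 17.1) and 271 of 2776 cDC2 peaks in all. All intervals given here cover counting error only.

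DC-SCRIPT, the product of Zfp366, is a zinc finger protein of dendritic cells. Its binding was mapped by CUT&Tag, in which an antibody directs a transposase to cut and tag the DNA beside a bound protein. The animals were female C57BL/6 mice, either zfp366+/+ (wild type) or zfp366-/- (knockout, used as the control). The labels list 3 wild-type and 2 knockout cDC1 libraries, and 1 wild-type and 2 knockout cDC2 libraries, each from pooled mice. One peak list was deposited for each subset, made by setting 1 set of wild-type tags against 1 set of knockout tags, and the sources used here do not say which libraries entered each set. Every value below therefore comes from a pooled or single tag set, with no spread between replicates, and no difference was tested. Peak lists do not measure expression, so the sorted identity of the cells was not checked.

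The depths behind the lists differ. In units of 1000000 tags, the cDC1 list rests on 35.5 wild-type and 12.1 knockout and holds 31473 peaks. The cDC2 list rests on 4.77 wild-type and 6.83 knockout. Both knockout totals are estimates from the scaling between the deposited columns. Values are normalised tags, that is, tags at a peak per 10000000 tags of the library, so that 1 wild-type tag is worth 0.282 in cDC1 and 2.09 in cDC2. Both lists kept only peaks at least 4-fold above knockout, so a fold over knockout describes how peaks were selected and supports nothing further.

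Conventional dendritic cells take up antigen and present it to T cells. The cDC1 subset is known for presenting antigen from dead cells to CD8 T cells and depends on the factors IRF8, BATF3 and ID2, and the cDC2 subset is known for priming CD4 T cells and depends in part on IRF4 and NOTCH2. The start of a gene is where its promoter lies and RNA polymerase II begins transcription, and transcription factors such as the ETS factor PU.1, the interferon regulatory factors and AP-1 bind short DNA words there or at distant enhancers.

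Stretches of 6 of these promoters are printed to show the bases under the peaks at genes that the results below return to. Each runs 5′ to 3′ on the strand of its gene, ends before the annotated start, lies wholly inside the shared cDC2 peak, and was copied from the RefSeq promoter table (GRCm38.p6). Capitals mark letters that match one of the 14 motifs searched, and a match describes the letters, not a bound site.

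The stretch at Zbtb3, which encodes a BTB zinc finger protein, is chr19:8802263-8802390 on the plus strand and lies under the member with the highest cDC2 score. Its capitals are 2 NF-Y words and 1 PU.1 word.
Zbtb3: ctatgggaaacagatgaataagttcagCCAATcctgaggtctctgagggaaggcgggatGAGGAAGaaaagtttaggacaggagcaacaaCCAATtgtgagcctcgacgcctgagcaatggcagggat
The stretch at Wbp1l is chr19:46598878-46599068 on the plus strand and is shown because it holds an AP-1 word under the peak, beside words for YY1, PU.1, NF-Y and the GC box.
Wbp1l: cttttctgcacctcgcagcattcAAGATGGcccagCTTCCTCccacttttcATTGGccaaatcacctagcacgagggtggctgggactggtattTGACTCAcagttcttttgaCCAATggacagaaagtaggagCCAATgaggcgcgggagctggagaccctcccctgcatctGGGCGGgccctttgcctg
The stretch at Cst3, which encodes cystatin C, a protease inhibitor abundant in dendritic cells, is chr2:148875524-148875714 on the minus strand. One GC box is its only match.
Cst3: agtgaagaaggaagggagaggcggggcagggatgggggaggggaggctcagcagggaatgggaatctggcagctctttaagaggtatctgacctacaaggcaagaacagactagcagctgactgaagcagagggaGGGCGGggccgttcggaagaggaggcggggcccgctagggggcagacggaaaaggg
The stretch at Etv6, which encodes an ETS family repressor active in blood cell development, is chr6:134035450-134035614 on the plus strand, again with a single GC box.
Etv6: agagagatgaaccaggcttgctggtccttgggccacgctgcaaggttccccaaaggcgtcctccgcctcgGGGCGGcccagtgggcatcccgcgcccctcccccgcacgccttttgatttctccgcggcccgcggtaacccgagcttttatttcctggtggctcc
The stretch at Notch2, which encodes the receptor needed by a part of the splenic cDC2, is chr3:98013288-98013417 on the plus strand and holds 3 GC boxes.
Notch2: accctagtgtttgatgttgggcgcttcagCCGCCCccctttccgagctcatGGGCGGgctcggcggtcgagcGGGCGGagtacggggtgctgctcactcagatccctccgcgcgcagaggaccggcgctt
The stretch at Tlr11, which encodes an endosomal sensor of parasite profilin used by cDC1, is chr14:50357751-50357913 on the plus strand. Unlike the other 5 it is AT-rich, with 41.1% G and C, the lowest content of the 6, and its capitals are a PU.1 word, an interferon response element and an NF-Y word.
Tlr11: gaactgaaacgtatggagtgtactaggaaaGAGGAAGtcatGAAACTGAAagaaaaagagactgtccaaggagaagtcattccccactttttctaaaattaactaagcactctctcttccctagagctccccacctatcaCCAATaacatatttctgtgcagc

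Shared binding at gene ends was mostly binding at gene starts. A member was called at a start if any gene within 1 kb had its start there, even where another gene was nearer. Of the 223 members with a call, 205 were at a start (91.9%, 87.5 to 95.1) and 18 at a 3′ end. The other 48 members had no call, since a gene in reach had no strand in the tables used. The same share was 92.5% among the 5174 cDC1 gene-end peaks with a strand that no cDC2 peak overlapped, so position at a start did not mark the shared peaks. Of the 271 members, 34 were within reach of 2 genes, and for 20 of them both genes had their start there, as at Stat5a and Stat5b. In 268 of the 271, the partner cDC1 peak also lay at a gene end.

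The rule required the peaks of the subsets to overlap, so at a peak width of 191 bp their centres could lie at most 190 bp apart. Within that limit the centres were a median of 31 bp apart (21 to 41), against 42 bp (37 to 45) at the other shared peaks. The centres of 163 of 271 members (60.1%, 54.0 to 66.0) were at most 50 bp apart, and 12 were identical. Another cDC1 peak lay within 10 kb of 159 members (58.7%). The same share was not taken for other peaks, so it cannot be read as a trait of the members.

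Around the start, shared peaks leaned upstream. Among the 192 members within 1000 bp of a start in the promoter table, the centre was upstream of the start in 127 (66.1%, 59.0 to 72.8), with a median position of 113.5 bp upstream and quartiles at 278 bp upstream and 62 bp downstream. Of 4611 unshared cDC1 peaks near a start, 54.2% (52.7 to 55.6) were upstream. Shared peaks were also less tightly held at the start: 60.9% (53.7 to 67.9) had their centre within 250 bp, against 73.2% (71.8 to 74.4) of the unshared. Shared peaks were placed by their cDC2 centre, from a median of 12.5 wild-type tags, and unshared peaks by their cDC1 centre. Both contrasts thus mix sharing with the subset and with the precision of the centre, which could not be told apart. The peak covered the start base itself in 53 members.

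**Figure D1:**
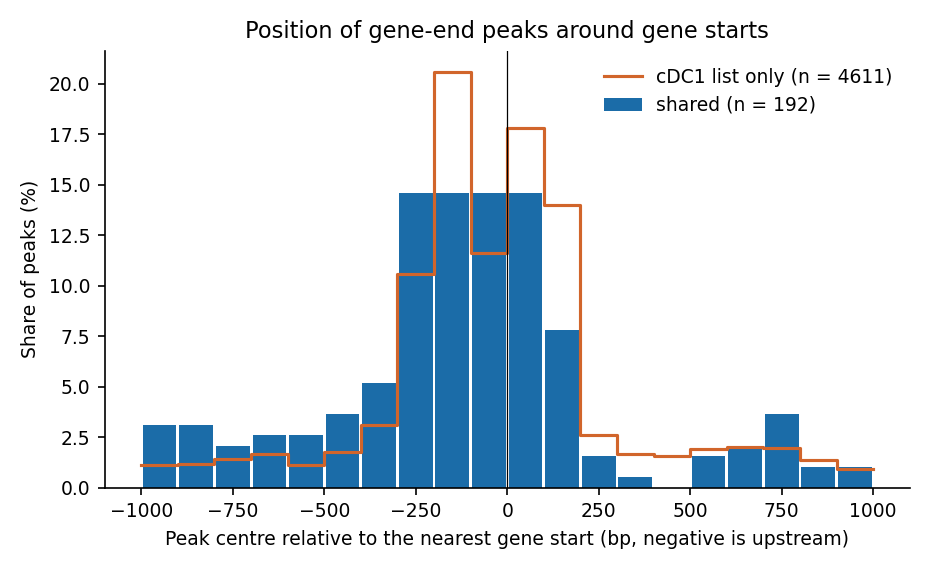
Position of peak centres relative to the nearest annotated start (x axis, bp, negative values upstream) as the percentage of peaks per bin (y axis), for shared peaks and for unshared cDC1 peaks at gene starts. The shared peaks lie further to the upstream side, with 66.1% of 192 centres upstream against 54.2% of 4611. Shared peaks are placed by their cDC2 centre and unshared peaks by their cDC1 centre.

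The 1 kb limit passed through a continuum of peaks. The members just inside it were at Nlrp3 (961 bp downstream of the gene's outermost start, though 156 bp upstream of an alternative start), Ccsap (970 bp) and Bach1 (982 bp), with 91.1, 30.4 and 18.8 cDC2 wild-type normalised tags. Shared peaks just outside were near Ints6l (1007 bp) and Rsf1 (1053 bp), with 19.9 and 26.2.

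Gene ends were not where sharing was most frequent. Of 467 cDC2 peaks at gene ends, 271 overlapped a cDC1 peak (58.0%, 53.4 to 62.5), against 63.7% of all cDC2 peaks and 64.8% (62.8 to 66.7) of those elsewhere. Seen from the cDC1 list, 269 of 6531 gene-end peaks overlapped a cDC2 peak (4.12%, 3.65 to 4.63), against 1498 of 24942 elsewhere (6.01%, 5.71 to 6.31).

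The gap was wider among strong cDC1 peaks. When all cDC1 peaks were put into 5 equal groups by wild-type tags, the share with an overlapping cDC2 peak at gene ends was 0.476% in the group with the fewest tags and 6.99% in the group with the most (5.86 to 8.26, 127 of 1818). In that last group, of 29.0 to 360.9 normalised tags, the share was 15.4% (14 to 16.8) for peaks inside genes and 23.1% (20.8 to 25.5) for peaks over 10 kb from any gene, at nearly equal median tags of 40.5, 39.6 and 41.2. Among peaks of that group at least 16-fold above knockout, a setting chosen after seeing the data, the shares were 18.5% (n = 303), 22.5% (n = 950) and 29.0% (n = 596), so the gap was narrower there. Fewer gene-end peaks reached that fold, 303 of 1818 against 950 of 2467 inside genes and 596 of 1296 far from genes, and the part of the fold in the gap was not tested.

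**Figure D2:**
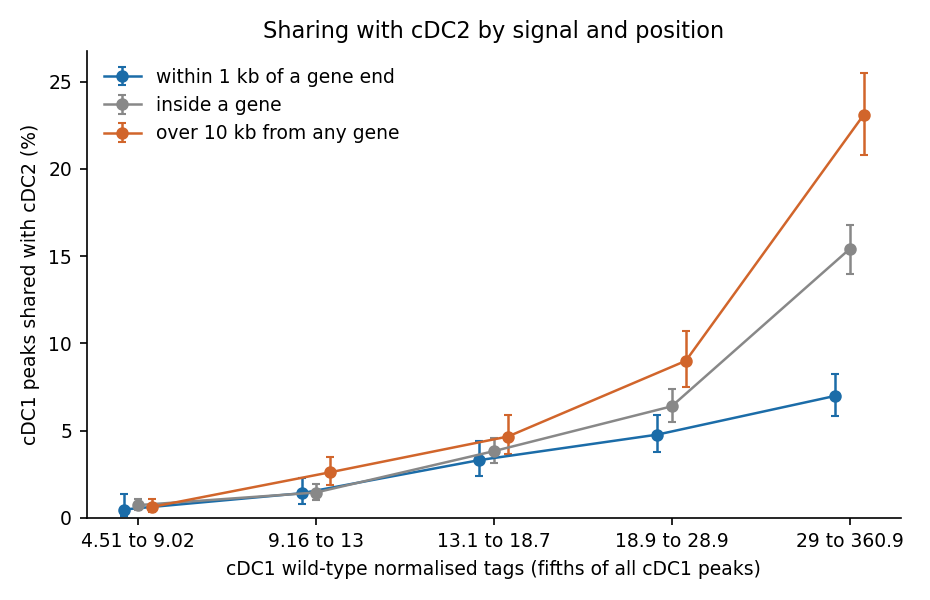
Percentage of cDC1 peaks that overlap a cDC2 peak (y axis) in 5 equal groups by cDC1 wild-type normalised tags (x axis), for peaks at gene ends, inside genes and over 10 kb from a gene; bars are exact 95% intervals. In the highest group gene-end peaks reach 6.99%, below the 15.4% and 23.1% of the other classes.

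Signal at the members was moderate and spanned a wide range. Wild-type values ran from 5.64 to 138.0 normalised tags in cDC1 and from 13.6 to 178.0 in cDC2. The median in cDC1 was 27.6 (25 to 31.3), below the 31.9 (30.4 to 33.4) of the 1496 shared peaks elsewhere, and the cDC2 median was 26.2 in both sets. The median fold over knockout, as the authors' deposited table gives it, was 11.6 in cDC1 at the members against 15.1 at the other shared peaks, and 6.43 against 6.91 in cDC2. Compared with cDC1 gene-end peaks that were not shared, whose median was 19.5 normalised tags, the members were stronger in cDC1. Since sharing at gene ends rose with cDC1 tags, as given above, this difference restates that result and is not a separate one.

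The strongest member was at the start of Zbtb3 (chr19:8802200-8802390). It had 138.0 normalised tags in wild-type and 1.24 in knockout cDC1, and 178.0 in wild-type and 11.7 in knockout cDC2. The folds over knockout in the authors' deposited table were 111.8 in cDC1 and 15.3 in cDC2, for which intervals computed from the tags ran from 23.0 to 692.9 and from 7.46 to 36.7. The cDC1 to cDC2 ratio was 0.775 (0.608 to 0.974). Its cDC2 value was well above that of every other member.

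Nlrp3 and Zfp36l1 were both among the 15 members with the highest cDC2 score. Nlrp3, which encodes the sensor of the best known inflammasome, had 103.8 in wild-type and 4.53 in knockout cDC1, and 91.1 and 11.7 in cDC2 (chr11:59542435-59542625). Zfp36l1, which encodes an RNA-binding protein that promotes decay of AU-rich messages, had 68.1 and 2.47 in cDC1 and 59.7 and 11.0 in cDC2. At both genes the ratio of 1.14 had an interval that held 1 (0.822 to 1.58 and 0.785 to 1.79).

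Polr2a, the peak between Ints9 and Hmbox1, Usp32 and Mon1b also ranked among these 15. Polr2a, which encodes the largest subunit of RNA polymerase II, had 137.0 in wild-type and 5.35 in knockout cDC1, and 68.1 and 12.5 in cDC2. The peak between Ints9, which encodes an Integrator subunit, and Hmbox1, which encodes a homeobox protein, had 68.9 and 7.41 in cDC1 and 89.0 and 11.7 in cDC2. Usp32, which encodes a ubiquitin protease, had 69.1 and 4.12 in cDC1 and 91.1 and 7.32 in cDC2. Polr2a was thus higher in cDC1, by 2.01-fold (1.43 to 3.02), while the cDC2 value was the higher one for the Ints9 and Usp32 peaks, whose ratios of 0.774 (0.562 to 1.11) and 0.759 (0.542 to 1.06) had intervals that held 1. Mon1b, which acts in endosome maturation, had 73.2 and 3.71 in cDC1 and 70.2 and 16.1 in cDC2, a ratio of 1.04 (0.718 to 1.52).

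Cst3 had 99.1 in wild-type and 2.06 in knockout cDC1, and 67.0 and 12.5 in cDC2, a cDC1 to cDC2 ratio of 1.48 (1.03 to 2.19). Ppm1m, which encodes a protein phosphatase of the PP2C family, had 111.6 and 4.94 in cDC1 and 57.6 and 9.52 in cDC2, a ratio of 1.94 (1.3 to 2.9). Cited2, which encodes a co-regulator that binds CBP and p300, had 68.9 and 10.3 in cDC1 and 69.1 and 16.8 in cDC2. These 3 differ in their knockout background as well as in their signal: Cited2 kept the most knockout tags of them in both subsets.

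**Figure D3:**
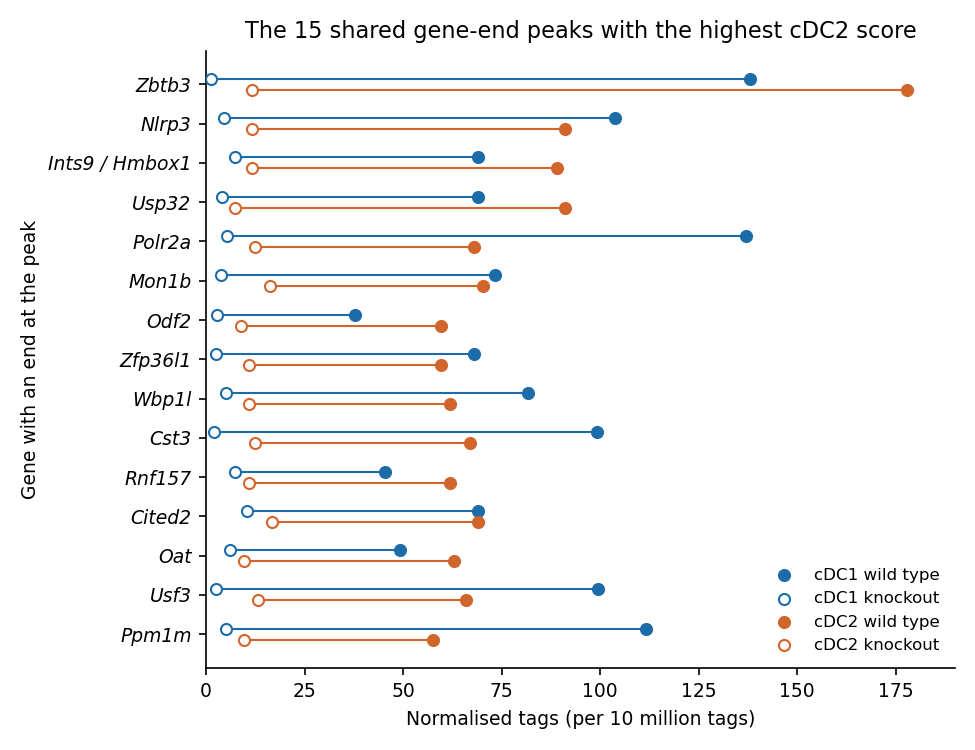
Wild-type (filled) and knockout (open) normalised tags (x axis, per 10000000 tags) in cDC1 and cDC2 at the 15 members with the highest cDC2 score (y axis, gene with an end at the peak). Every wild-type value exceeds its knockout value, as the lists require, and Zbtb3 reaches 138.0 in cDC1 and 178.0 in cDC2.

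The levels in the subsets can be compared at the members only as far as their choice allows, since each had to be called in both lists and each value is scaled to its own library total. Each value was also counted under the peak of its own list, so the windows behind a ratio can cover partly different bases. The median cDC1 to cDC2 ratio of normalised tags was 1.04 (0.976 to 1.09), against 1.10 (1.06 to 1.14) at the other shared peaks. The ratio was 2 or more at 17 members (6.27%), against 11.2% of all shared peaks, and 0.5 or less at 8 (2.95%), against 6.73%. When the median ratio over all shared peaks, 1.09, was set to 1, the counts became 12 and 12 (4.43% each), against 8.60% and 9.39% of all shared peaks, so the excess of cDC1-high members depended on the scaling. The interval of the ratio lay above 1 at 32 members (11.8%) and below 1 at 10 (3.69%), against 18.9% and 7.89% of the other shared peaks. These shares were all lower at gene ends than elsewhere, with no adjustment for the number of intervals. Because a peak had to reach the cDC2 list at a low depth, the lowest cDC2 value was 13.6 while cDC1 values went down to 5.64.

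**Figure D4:**
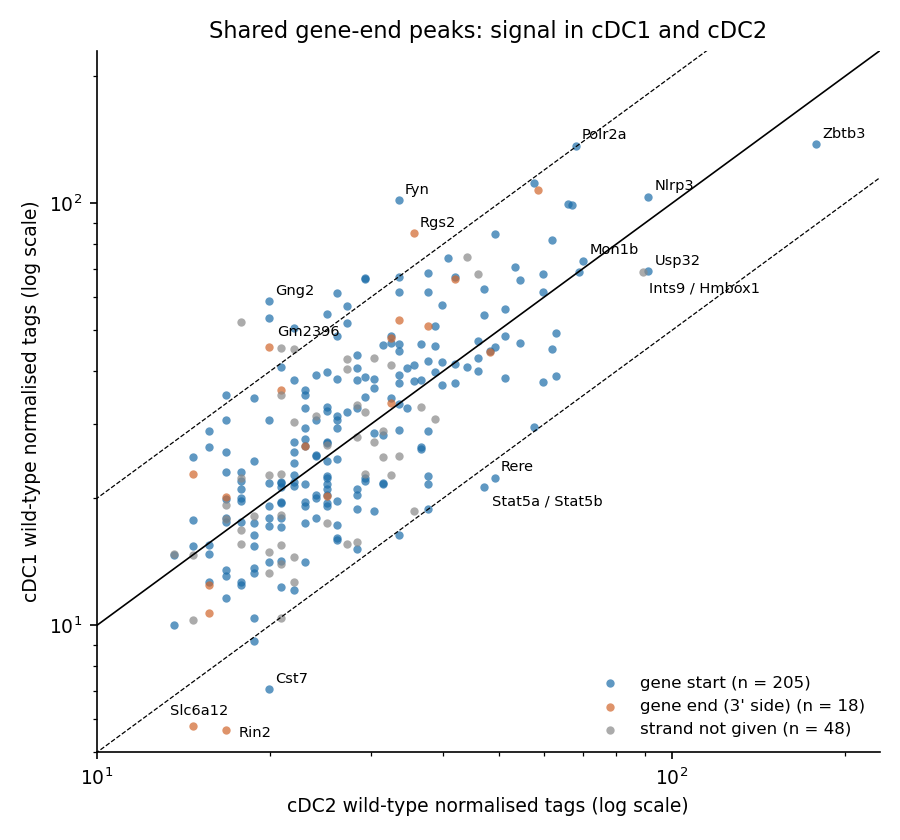
Wild-type normalised tags in cDC2 (x axis, log scale) and cDC1 (y axis, log scale) at the 271 members, coloured by position at a gene start, a 3′ end or with strand not given. The solid line is equality and the dashed lines a ratio of 2 and of 0.5; Fyn lies furthest above the band and Rin2 furthest below.

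The members highest in cDC1 relative to cDC2 included signalling genes. Fyn, which encodes a kinase of the Src family, had 101.8 in wild-type and 5.35 in knockout cDC1, and 33.5 and 8.06 in cDC2, a ratio of 3.04 (1.84 to 5.37). The Fyn peaks of the subsets shared 80 of 191 bases, with centres 111 bp apart, so this ratio compares partly different bases. Gng2, which encodes a G protein gamma subunit, had 58.6 and 1.24 in cDC1 and 19.9 and 2.93 in cDC2, a ratio of 2.94 (1.49 to 5.93). Rgs2, which encodes a regulator that shortens G protein signals, had 85.1 and 2.88 in cDC1 and 35.6 and 8.79 in cDC2 at its 3′ end, a ratio of 2.39 (1.47 to 4.16). Gm2396 had a ratio of 2.69 (1.36 to 5.42). In these 4 the interval lay above 1, but the cDC2 values of Gng2 and Gm2396 were near the low end of the members.

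The members with the lowest ratios included weak peaks. Rin2, which encodes an activator of the endosomal GTPase RAB5, had 5.64 in wild-type and the lowest recorded value of 0.412 in knockout cDC1, which is at least 2.28-fold when 3 tags are taken as the floor, and 16.8 and 2.20 in cDC2, a ratio of 0.336 (0.142 to 0.883). Cst7, which encodes cystatin F, an inhibitor of lysosomal cathepsins in immune cells, had 7.05 and 0.824 in cDC1 and 19.9 and 2.93 in cDC2, a ratio of 0.354 (0.156 to 0.785). The cystatin genes Cst3 and Cst7, which lie on the same chromosome, thus had ratios on opposite sides of 1. The 3′ end of Slc6a12, which encodes a betaine and GABA transporter, had a ratio of 0.393, with an interval that held 1 (0.165 to 1.12).

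A pair of stronger members was also cDC2-high. The start shared by Stat5a and Stat5b, which encode transducers of GM-CSF and related cytokine signals, had 21.3 in wild-type and 2.88 in knockout cDC1, and 47.1 and 4.39 in cDC2, a ratio of 0.452 (0.286 to 0.785). Rere, which encodes a nuclear receptor co-regulator, had 22.4 and 0.412 in cDC1 and 49.2 and 8.06 in cDC2, a ratio of 0.455 (0.278 to 0.732), with a cDC1 fold over knockout of at least 9.06. The Rere peaks of the subsets shared only 40 of 191 bases, with centres 151 bp apart, so this ratio compares mostly different bases.

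The 271 members touched 301 of 21900 protein-coding genes (1.37%), and 6675 genes (30.5%) had a cDC1 peak at an end. Several gene lists of dendritic cell biology held a larger share of these genes than the genome did, as counts without a test. Core genes and factors of dendritic cells had 4 of 25 on their list, Itgax, Etv6, Id2 and Irf4, while 13 of the 25 had a cDC1 gene-end peak. The cDC1 markers had 3 of 24, Cst3, Xcr1 and Tlr11, and the cDC2 markers had 4 of 25, Ltb, Cx3cr1, Notch2 and Irf4.

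Among the core genes, Itgax, which encodes the CD11c integrin chain, had 62.6 in wild-type and 3.71 in knockout cDC1, and 47.1 and 7.32 in cDC2. Id2, which encodes an inhibitor of E proteins needed for cDC1, had 66.8 and 8.65 in cDC1 and 41.9 and 9.52 in cDC2, a ratio of 1.59 (1.01 to 2.66). Etv6 had 68.4 and 6.59 in cDC1 and 37.7 and 8.79 in cDC2, a ratio of 1.81 (1.13 to 3.12). The intervals of the ratios of Id2 and Etv6 began just above 1, and that of Itgax, whose ratio was 1.33, held it (0.875 to 2.21). Irf4, which encodes a factor used by cDC2, had 22 and 3.71 in cDC1 and 17.8 and 1.46 in cDC2, a ratio of 1.24 (0.634 to 3.15).

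Whether the binding of cDC1 and cDC2 could be told apart differed between the subset markers. Xcr1, which encodes the chemokine receptor that marks cDC1, had 51.2 in wild-type and 3.30 in knockout cDC1, and 37.7 and 4.39 in cDC2 at its 3′ end, a ratio of 1.36 (0.837 to 2.35). The Xcr1 peaks of the subsets shared only 24 of 191 bases, with centres 167 bp apart, so this ratio compares mostly different bases. Cx3cr1, which encodes the fractalkine receptor found on a part of the cDC2, had 16.1 and 2.06 in cDC1 and 26.2 and 0.732 in cDC2, a ratio of 0.615 (0.339 to 1.31). Notch2 had 21.7 and 1.24 in cDC1 and 19.9 and 0.732 in cDC2, a ratio of 1.09 (0.534 to 2.25). All 3 intervals held 1 and were wide, so no difference was detectable at this depth, which does not show that the levels were equal. At Tlr11 the values were 35.2 and 0.412 in cDC1 and 16.8 and 1.46 in cDC2. Its ratio was 2.10 (1.04 to 4.98), with a cDC1 fold over knockout of at least 14.2. Among the cDC1 markers, the intervals of Tlr11 and Cst3 (1.48, 1.03 to 2.19) thus began just above 1, and that of Xcr1 held it. Among the cDC2 markers, the intervals of Ltb (1.47, 0.856 to 2.56), Cx3cr1, Notch2 and Irf4 all held 1.

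Signalling lists were next. The interferon receptor and JAK-STAT list had 4 of 30 (13.3%, 3.76 to 30.7), with a cDC1 gene-end peak at 17. These were Stat5a, Stat5b, Ifngr2 and Irf2, of which Stat5a and Stat5b rest on 1 peak. The Toll-like receptor and NF-kB list had 4 of 39 (10.3%, 2.87 to 24.2), Nfkbie, Irak4, Tlr9 and Tlr11, with a cDC1 gene-end peak at 25. Nfkbie, which encodes the inhibitor IkB epsilon, was the strongest of these, with 46.8 in wild-type and 2.06 in knockout cDC1, and 54.5 and 9.52 in cDC2. The cytokine and costimulation list had 2 of 30 (6.67%, 0.818 to 22.1), an interval that held the genome's 1.37%, with a cDC1 gene-end peak at 18. Cd80, which encodes a ligand of CD28, had 38.8 and 2.06 in cDC1 and 29.3 and 4.39 in cDC2. Il18, an inflammasome-processed cytokine, had 26.6 and 0.824 in cDC1 and 23.0 and 2.93 in cDC2. The Il18 peak lay 938 bp upstream of the start of that gene and 100 bp upstream of a start of Bco2.

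Several other lists, like the cytokine and costimulation list, were too small, or held too few of these genes, to be told apart from the genome's 1.37%. The antigen presentation list had 0 of 30 (0% to 11.6%), with a cDC1 gene-end peak at 15 of the 30. The splicing and RNA export list had 0 of 42 (0% to 8.41%), with a cDC1 peak at 25, and the mitochondrial ribosomal protein list 0 of 78 (0% to 4.62%), with one at 39. Cytosolic ribosomal protein genes had 2 of 84 (2.38%, 0.290 to 8.34), Rpl11 and Rps20, with a cDC1 peak at 60, and chromatin regulators had 1 of 52 (1.92%, 0.0487 to 10.3), the acetyltransferase gene Ep300, with one at 30. The larger families held 12 of 438 Zfp and Zbtb genes (2.74%, 1.42 to 4.74) and 8 of 335 ubiquitin genes (2.39%, 1.04 to 4.65). They also held 6 of 237 membrane traffic genes (2.53%, 0.935 to 5.43) and 6 of 375 solute carriers (1.60%, 0.589 to 3.45). Only the first of these intervals lay above the genome's 1.37%, and its lower limit of 1.42 was close to it. That list was drawn by gene name and counts Zfp36l1, which encodes an RNA-binding protein. It also counts Zfp646 and Zfp668, which rest on 1 peak.

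Lists for other cell types and unrelated tissues are short, and at the genome's 1.37% a count of 0 in them is no result. The B cell, plasmacytoid dendritic cell, erythroid, and monocyte, macrophage and neutrophil lists had 0 of 16, 0 of 16, 0 of 12 and 0 of 22, and the neuron and liver list had 0 of 25, with upper limits from 13.7% to 26.5%. The T and NK cell list had 1 of 22 (4.55%, 0.115 to 22.8), Il7r, which encodes the interleukin 7 receptor chain, with 19.7 in wild-type and 1.65 in knockout cDC1, and 17.8 and 1.46 in cDC2.

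The 18 members at 3′ ends included several immune genes. Man2a1, which encodes a Golgi mannosidase, had the highest cDC1 value of them, 107.8 in wild-type and 3.71 in knockout, with 58.6 and 9.52 in cDC2. Ctla4, an inhibitory receptor best known on T cells, had 53.0 and 1.24 in cDC1 and 33.5 and 7.32 in cDC2, and Ltb, which encodes lymphotoxin beta, had 47.9 and 4.94 in cDC1 and 32.5 and 8.06 in cDC2; Man2a1 and Ctla4 were picked after their values were seen. The median wild-type signal in cDC1 was 34.9 (20.2 to 51.2) at 3′ ends against 28.9 (25.2 to 33.0) at starts. In cDC2 it was 24.1 (16.8 to 35.6) against 26.2 (25.1 to 28.3). The intervals overlapped in both subsets, so the medians could not be told apart.

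A few genes carried more than 1 member. Oat, which encodes ornithine aminotransferase, had peaks centred 117 bp and 584 bp downstream of its start, with 62.8 and 51.3 wild-type normalised tags in cDC2 and 49.2 and 56.2 in cDC1. Coro1c, which encodes an actin-binding coronin, had a pair at its 3′ end with 32.5 and 23.0 in cDC2. Slc6a12 had 1 peak before its start, with 20.4 in cDC1 and 28.3 in cDC2, and 1 at its 3′ end, with 5.78 and 14.7.

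For most of the motifs the intervals of the shares overlapped between windows of shared and of unshared cDC1 peaks, which does not show that the shares were equal. A window of 300 bases, from 250 before to 50 after the start, was available for 191 members and was searched on both strands, and the same was done for 4289 unshared cDC1 starts and all 21263 coding windows. The ETS word CCGGAAG was in 20.9% of member windows, 21.3% of unshared ones and 11.6% of all windows. For the PU.1 word GAGGAAG the shares were 18.8%, 14.7% and 13.6%, and for the NF-Y word CCAAT 42.9%, 41.5% and 38.2%. Bound starts of either kind thus held the ETS word more often than all windows, with intervals above that of all windows. The same was true of the GC box and NRF1 words, whose shares follow. The GC box GGGCGG was in 62.8%, 68.9% and 46.2%, and the E-box CACGTG in 5.76%, 10.6% and 7.84%. The composite of PU.1 and interferon regulatory factors, GGAANNGAA, was in 6.28%, 7.97% and 7.76%, and the interferon response element, GAAANNGAA, in 10.5%, 7.83% and 8.15%; these words can share bases with each other and with the PU.1 word. The other 6 words had these shares in the same order. The CRE word TGACGTC was in 3.66%, 6.13% and 3.84%, and the RUNX word TGTGGT in 13.6%, 12.6% and 15% of windows. The NRF1 word GCATGCGC was in 7.85%, 6.64% and 3.52%, and the YY1 word AAGATGG in 6.28%, 7.41% and 6.24%. The NF-kB word GGGANTTCC was in 4.19%, 2.61% and 1.84%, and the GATA word AGATAA in 4.71%, 5.39% and 9.65%. For all of these the intervals at shared and unshared starts overlapped.

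The AP-1 word was the motif whose interval at shared starts lay wholly above that at unshared cDC1 starts, as a description without a test. TGANTCA, read on both strands, was in 23 of 191 member windows (12%, 7.79 to 17.5), against 4.17% (3.59 to 4.82) of unshared cDC1 windows and 6.99% of all windows. It was in 4.31% of the 1276 unshared windows of the highest tag group, a comparison added after seeing the data. In the bases that the cDC2 peak itself covers, the word was in 4 of 80 members with enough bases (5.0%, 1.38 to 12.3), against 2.78% (2.10 to 3.59) of unshared peaks, so under the peaks themselves the intervals overlapped. The matching letters lay under the peak in 6 of the 23 windows. The genes with the word included Itgax, Nfkbie, Tlr9, Zfp36l1, Cst7, Gng2 and Wbp1l, whose stretch is printed above, and Havcr2, which encodes the receptor TIM-3 and was picked after the values were seen.

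**Figure D5:**
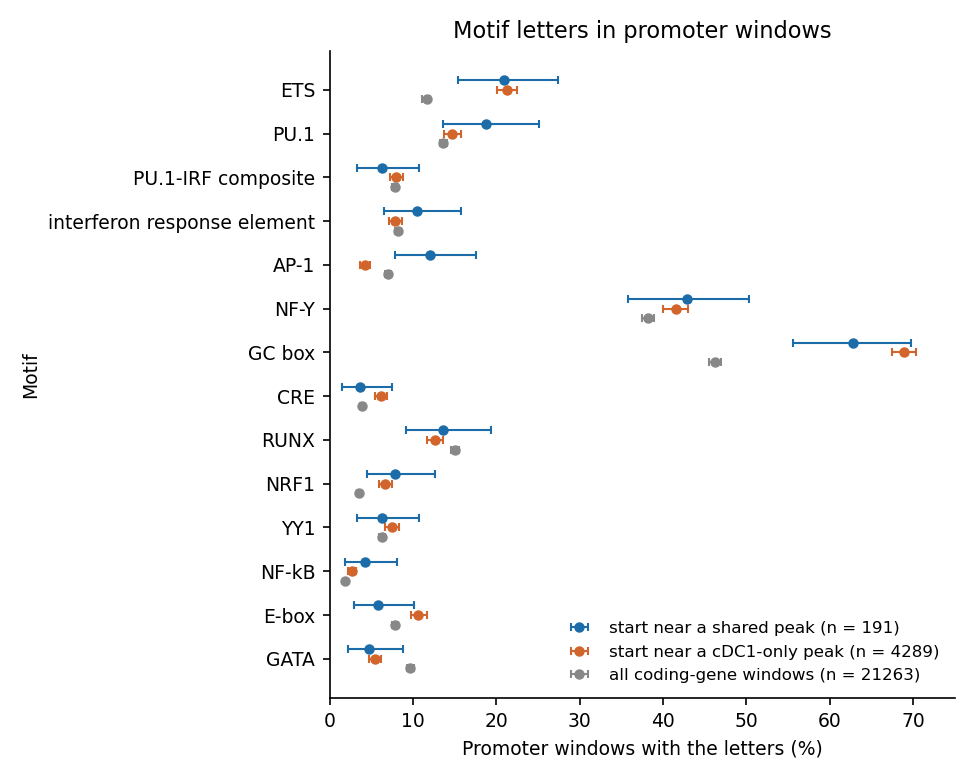
Percentage of promoter windows that hold the letters of each of 14 motifs (x axis), for starts at shared peaks (n = 191), at unshared cDC1 peaks (n = 4289) and for all coding windows (n = 21263); bars are exact 95% intervals. AP-1 is at 12% at shared peaks against 4.17% at unshared ones, while ETS is at 20.9% and 21.3%.

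Base composition differed a little in the same windows. The ratio of observed to expected CpG was at least 0.6 in 68.6% (61.5 to 75.1) of member windows, 79.2% (78.0 to 80.4) of unshared cDC1 windows and 47.7% of all windows. The median content of G and C was 61.0% and 61.3% at shared and unshared starts, and 56.3% over all windows. Whether the CpG content bears on the AP-1 share, or on the shares of the ETS, GC box and NRF1 words, which contain CG, was not tested.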

How the data were processed

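CUT&Tag for DC-SCRIPT was analysed from 2 peak lists, 1 for each subset. Per the submitters' processing notes, HOMER was used and the builds GRCm38 and mm10 are named; the aligner was not given in the sources used here. Per the file headers, the authors called peaks of 191 bp on wild-type tags with knockout tags as control, keeping a fold of at least 4 over control and a Poisson p-value of at most 0.0001, a false discovery rate of 0.001 and a local filter over 10 kb. The deposited columns hold signal (normalised tags per 10000000), a peak score, a focus ratio as a fraction, a fold ratio over control or local background, and p-values; all are the authors' values, and the p-values were used for no result. Columns of clonal fold were not used.

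Wild-type tags of cDC1 were recovered from normalised tags and the library total, and those of cDC2 were taken as listed. Knockout tags of cDC1 were taken as listed, and those of cDC2 were recovered from the wild-type tags and the fold. The knockout totals were estimated from the scaling between the deposited columns, and knockout normalised tags rest on these estimates. Ratios carry exact 95% intervals conditional on the total tags, with tags rounded to whole numbers, and shares carry exact (Clopper-Pearson) intervals; medians carry order-statistic intervals. A knockout value of 0.5 tag is the lowest recorded, and a floor of 3 tags gives the lower bound of a fold. Overlap needed 1 bp. Genes and strands came from RefSeq tables: strand was known for 17492 of 21900 coding genes and 245 of 301 genes at members. Promoter sequence came from RefSeq windows. Overlap, distance to gene ends, position inside genes and the intervals of ratios and medians were checked on planted examples with known answers. Motif counting was not checked in this way. The text names the 15 members with the highest cDC2 score, the 5 highest and 5 lowest ratios, up to 4 genes of each of 24 lists, genes with 2 members and 3 peaks on each side of the limit; not every one is described, and 2 of them are not reported here. The members, lists and motifs were chosen with earlier results of these data known. Alternatives changed the overlap, the distance, the fold, the score, the scaling and the bases searched. Python 3.11.15, numpy 2.4.6, scipy 1.17.1, pandas 2.3.3 and matplotlib 3.10.9 were used.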

Additional observations from a re-analysis of the deposited data

How the results depend on the processing

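Of 271 members, 65 were left with a fold of 8 or more in both lists and 160 with the 50% of peaks of higher score, whereas an overlap of 50% or limits of 500 bp and 2 kb gave 219, 203 and 352. The share at a start stayed between 92.8% and 94.5% and the median ratio between 1.00 and 1.05 under the alternatives run. The AP-1 share fell from 12% to 5.0% when only the bases under the peak were searched, which are fewer, and 10 of the 14 motif shares moved with that choice. In the highest tag group, the shared part of gene-end cDC1 peaks was 6.99%, and 10.2% if centres within 1 kb were taken as shared. For peaks at least 16-fold above knockout it was 18.5%. The point values of gene-end peaks were below those of both other classes in each setting. At 16-fold the nearest class was peaks inside genes, at 22.5%, and that difference was not tested. No paired analysis was possible because each list gives 1 pooled wild-type and 1 knockout value, with no replicate columns; for the same reason no replicate could be left out. The low number of cDC2 wild-type tags limits every comparison of the subsets.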
